A study of Homo sapiens with 6 samples.

Results

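The 8 genes described here encode major heat shock chaperones: HSPA8, HSPA5 and HSPA9 of the HSP70 family, HSP90AA1, HSP90AB1 and HSP90B1 of the HSP90 family, and the mitochondrial chaperonin pair HSPD1 and HSPE1. They were chosen by name as abundant mRNAs, out of 19529 protein-coding genes of the annotation, and their members in the data are the sites on the strand of each gene within its span in the hg19 build of the human genome. A site is a genomic interval covered by overlapping reads of 1 library, with any number of reads. The genes held 1788 of the 10639684 sites of 6 libraries, namely 232 (G20), 75 (G35), 98 (G45), 277 in HuR replicate 1, 529 in HuR replicate 2 and 577 in Total. The study asked how much of the RNA recovered by PAR-CLIP is background, and the chaperone mRNAs address whether background reads follow the abundance of an mRNA. PAR-CLIP crosslinks RNA carrying 4-thiouridine (4SU) to protein with long-wave UV light, and crosslinked 4SU is then read as C instead of T. All 6 libraries came from HEK293 cells, a human embryonic kidney line, given 4SU, crosslinked with UV light and digested with RNase T1, which cuts after G. Background was measured with FLAG-GFP, a tagged protein that is not an RNA-binding protein, pulled down with the FLAG M2 antibody, from gel regions near 20, 35 and 45 kDa that gave 1 library each (G20, G35 and G45). HuR, the RNA-binding protein encoded by ELAVL1, was pulled down with the same antibody in 2 replicates. Total was 1 library of lysate without immunoprecipitation, in which protein was digested and ribosomal RNA depleted. Per the study's methods, GFP and HuR were expressed from doxycycline-inducible constructs in stable lines, and how the HuR level compared with the native one is not stated. The libraries pooled many cells, so that fewer cells holding an mRNA and less of it per cell cannot be told apart. The cell line was not checked against markers.

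Chaperones bind proteins that are unfolded or newly made and help them reach or keep their folded state, with cycles of ATP binding and hydrolysis in the HSP70, HSP90 and HSP60 classes. Each class has members in different compartments: HSPA8 and the 2 forms encoded by HSP90AA1 and HSP90AB1 work in the cytosol, HSPA5 (BiP) and HSP90B1 (GRP94) in the endoplasmic reticulum, and HSPA9 (mortalin), HSPD1 (HSP60) and its cofactor HSPE1 (HSP10) in mitochondria. Their mRNAs are abundant in dividing cells. HuR binds U-rich and AU-rich stretches of mRNA, mostly in 3'UTRs and introns.

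The best-covered background sites of the chaperone mRNAs, small nucleolar RNAs set aside, lay in coding sequence and were mostly rich in A and G, and stretches of them are shown first because the results turn on them. The site with the most slice reads is given for 7 genes, and the next one as well for the HSP90 genes, which had the most such reads. HSPE1, with 4 slice reads at its best site, has no line. Each stretch is 30 bases of a site that can be much longer, taken as near to the peak of its best-covered cluster as the ends of the site allowed. It is printed as the mRNA strand reads, 5′ to 3′, in hg19 coordinates, with T for U and with runs of 3 or more T in capitals.
HSP90AA1, exon 5, chr14:102551254-102551283, minus strand: aagacaaagaagaagaaaaagaaaaagaag
HSP90AA1, exon 4, chr14:102551698-102551727, minus strand: aaagaagaccaaactgagtacttggaggaa
HSP90AB1, exon 10, chr6:44219925-44219954, plus strand: agaagatggaagagagcaaggcaaagTTTg
HSP90AB1, exon 6, chr6:44218127-44218156, plus strand: atcgaagatgtgggttcagatgaggaggat
HSP90B1, exon 17, chr12:104341089-104341118, plus strand: gtggaagaagagcccgaagaagaacctgaa
HSP90B1, exon 7, chr12:104332136-104332165, plus strand: cccatggaggaagaagaagcagccaaagaa
HSPA5, exon 1, chr9:128003321-128003350, minus strand: aggaggaggacaagaaggaggacgtgggca
HSPA8, exon 8, chr11:122929000-122929029, minus strand: taacgatgaggacaaacagaagattctgga
HSPA9, exon 10, chr5:137897367-137897396, minus strand: aagggattgtcactgatctaatcagaagga
HSPD1, exon 2, chr2:198363488-198363517, minus strand: ctcctcatctcactcgggcttatgccaaag

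The first of these lines, from HSP90AA1, held A or G at 96.7% of its bases and no T, and the HSPA5 line held A or G at 86.7% of its bases. By contrast, the HSPD1 line held A or G at 36.7% of its bases. All 10 stretches lie in coding exons. The 1788 chaperone sites all carried the sequence of the GRCh37 reference at their coordinates.

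The best-covered sites in the HuR libraries are shown next for 5 genes in which they lay away from the background sites printed above. They are the HSP90AA1 site with the most reads in replicate 1, and for each gene the mRNA site with the most in replicate 2. Each of them also overlapped background sites. In HSPA8, small nucleolar RNAs set aside, the replicate 2 site with the most reads (12) lay at its printed background site. HSPA5 and HSPE1, with 8 and 5 reads at their best sites in replicate 2, have no line.
HSP90AA1, 3'UTR, chr14:102547992-102548021, minus strand: tcagtactctacaattcctctgataatata
HSP90AA1, 3'UTR, chr14:102548024-102548053, minus strand: actaatctctggctgagggatgacttacct
HSP90B1, 3'UTR, chr12:104341601-104341630, plus strand: aaTTTTTTTTaacattcctcatgaatgtaa
HSPA9, 3'UTR, chr5:137891036-137891065, minus strand: tggaaTTTTTTTTTTTTTaaataaatacag
HSP90AB1, 5'UTR, chr6:44214899-44214928, plus strand: gctcactattacgtataatccTTTTcTTTT
HSPD1, exon 11, coding, chr2:198352620-198352645, minus strand: ttatgatgctatggctggagaTTTTg

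The HSPA9 line was 53.3% T with a run of 13 T, and the HSP90B1 line was 46.7% T with a run of 8 T. The HSP90AB1 line ended in runs of 4 T on either side of a C, and its A or G share was 26.7%. The HSP90AA1 lines held no run of 3 T.

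The libraries held 6187300 to 38644636 reads, of which 2.11% in G20, 6.14% in G35, 4.67% in G45, 7.62% and 10.6% in the HuR replicates and 16.4% in Total lay at exons of protein-coding mRNAs. At exons the slices held 352194 to 815382 reads and HuR replicate 1 held 725548, against 3392853 in HuR replicate 2 and 5874812 in Total. A count of 3 reads, the largest that 0 observed reads allows, stood for 3.68 (G20), 7.90 (G35), 8.52 (G45), 4.13 and 0.884 (HuR) and 0.511 (Total) reads per 1000000 exon reads (RPM). Levels below are in this unit, which sets aside the intron, repeat and structural RNA reads that fill most of the slices. Intervals given are at 95% and cover counting error only, since PCR copies were not marked by molecular identifiers.

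HSP90AA1 and HSP90AB1 were among the mRNAs with the most reads in background. The 8 genes together took 0.339% of exon reads (G20), 0.106% (G35) and 0.121% (G45) in the slices, against 0.161% in Total, and only 0.0223% and 0.0596% in HuR replicates 1 and 2. The share of exon reads was thus lower in both HuR libraries than in each of the other 4 libraries. The 20 kDa slice stood above the other slices and above Total. Without small nucleolar RNA (snoRNA) sites, which matter for HSPA8, the shares were 0.287%, 0.0964% and 0.113% in the slices, 0.154% in Total and 0.0222% and 0.0588% with HuR, in the same order.

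HSP90AA1, the stress-inducible cytosolic HSP90, had 854 exon reads in G20, 115 in G35, 126 in G45, 71 and 915 in the HuR replicates and 4268 in Total. It ranked 61st among all genes in G20 and 46th in Total, 161st in G35 and 169th in G45, but 1317th and 841st with HuR. Scaled by length, its level in RPM per kb of exon was 269 (G20), 77.8 (G35), 92.0 (G45), 25.2 and 69.4 with HuR and 187 in Total. G20 and Total were thus the high libraries for this mRNA, and HuR replicate 1 was the lowest.

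HSP90AB1, the constitutive cytosolic HSP90, gave 738, 95 and 141 exon reads in G20, G35 and G45, 20 and 329 with HuR and 1318 in Total. Its level in RPM per kb was 304, 83.9 and 134 in the slices, 9.25 and 32.5 with HuR and 75.3 in Total. The 3 slices stood above Total and both HuR libraries below it. HSP90B1, the HSP90 of the endoplasmic reticulum, gave 265, 45 and 52 reads in the slices, 18 and 253 with HuR and 635 in Total, or 74.3, 27.1 and 33.8 RPM per kb against 5.67 and 17.1 with HuR and 24.7 in Total. The order of the libraries was that of HSP90AB1, and for both genes the margin of G35 over Total was within counting error.

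HSPA8, the constitutive cytosolic HSP70, gave 569, 70 and 60 exon reads in the slices, 9 and 111 with HuR and 1846 in Total. Many of these reads came from snoRNAs that lie in its gene, and without them the counts were 116, 35 and 32, 8 and 83, and 1435. Its level in RPM per kb without them was 36.5 (G20), 23.4 (G35) and 23.1 (G45), 2.80 and 6.21 with HuR and 62.1 in Total, so that the HSPA8 mRNA stood below Total in each slice, and it ranked 1441st in G20 in place of 128th. HSPA5 gave 91, 37 and 24 reads in the slices, 7 and 39 with HuR and 369 in Total. HSPA9 gave 173, 27 and 17, then 25 and 303, and 688. For both of the last 2 genes, the level in RPM per kb was highest in G20, at 28.2 for HSPA5 and 43.5 for HSPA9, but HuR replicate 2 stood at 2.90 for HSPA5 and at 18.3 for HSPA9.

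The chaperonin genes had few reads. HSPD1 gave 68, 12 and 4 exon reads in the slices, 6 and 67 with HuR and 299 in Total. HSPE1, whose mRNA is 557 bases long, gave 9, 0 and 2, then 6 and 6, and 39. The 0 of HSPE1 in G35 allows up to 7.90 RPM, which is above its 6.64 in Total, so that no difference was detectable at this depth. Over the 8 genes, the order of levels per kb in Total ran from HSP90AA1 (187) through HSPA8 (79.8) and HSP90AB1 (75.3) to HSP90B1 (24.7) and HSPA9 (24.0), then HSPA5 (15.9), HSPD1 (15.6) and HSPE1 (7.58). Without snoRNA sites HSPA8 (62.1) came after HSP90AB1 (75.4).

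**Figure D1:**
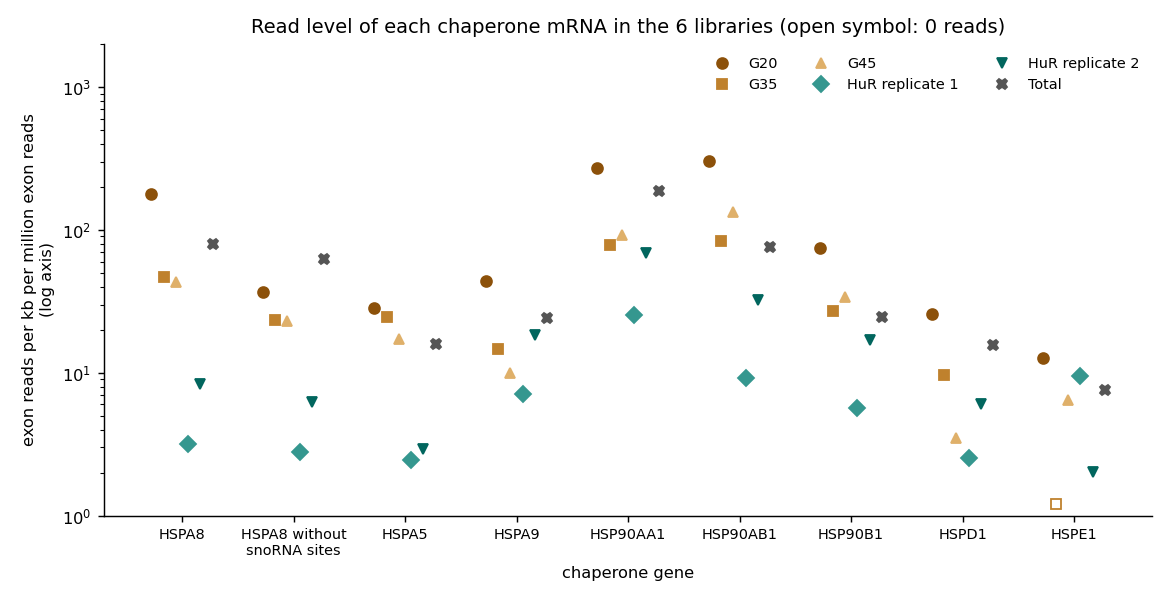
Exon reads per kb of exon, scaled to 1000000 exon reads in each library (RPM per kb, log axis), for the 8 chaperone genes, 1 symbol for each of the 6 libraries, with HSPA8 also drawn without snoRNA sites and an open symbol near the axis for the 0 of HSPE1 in G35. G20 is the highest library for all 8 genes with snoRNA reads counted, but for HSPA8 without them Total is the highest, and HuR replicate 1 is the lowest for 7 genes, with HSPE1 as the exception.

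Background reads of the chaperones rose with their abundance in Total, but not in fixed proportion. Over the 8 genes, Pearson's r of the log2 level between a slice and Total was 0.97 (G20), 0.95 (G35) and 0.89 (G45), against 0.66, 0.57 and 0.59 over 9638 genes with at least 50 Total exon reads. The 2 sets are not alike, since HSPE1, the lowest of the 8 genes in Total with 39 exon reads, is below that minimum. Its part in the values was not tested. Without snoRNA sites the 8 genes gave 0.92, 0.93 and 0.87. These values are across genes, which are not independent replicates, and gene length, base composition and each library's depth are shared by the points. HuR replicate 2 gave 0.90 over the same 8 genes, so that a high value was not confined to background.

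To set each library against expression, the log2 ratio to Total was taken for the 7 chaperones with at least 50 Total exon reads, which leaves out HSPE1, with 1 read added to each count. In G20, 3 of 7 were at least 2-fold above Total and 0 were 2-fold below, where 26.6% of all 9638 genes were above and 16.8% below. One of the 3 was HSPA8, and with snoRNA sites left out 2 of 7 were above (26.8% of all genes) and 0 below (16.6%). In G35, 1 of 7 was below (48.2% of all genes) and 0 above (6.88%), and in G45, 3 of 7 were below (41.6%) and 0 above (8.07%). With snoRNA sites left out, 2 in G35 and 4 in G45 were below (48.2% and 41.6% of all genes) and 0 above (6.89% and 8.07%). With HuR, 7 of 7 in replicate 1 and 5 of 7 in replicate 2 were below, against 40.6% and 32.8% of all genes, and 0 were above, against 9.02% and 25.7%. No test was made, as Total is 1 library and all 5 ratios share it.

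The largest excess over Total was that of HSP90AB1 in G20, with a log2 ratio of 2.01 (counting interval 1.88 to 2.14), a value higher than in 93.3% of genes. In G35 and G45 the same gene was at 0.17 (-0.16 to 0.46) and 0.84 (0.57 to 1.09). HSP90B1 was at 1.59, 0.16 and 0.48 in G20, G35 and G45. Both genes were thus at or above their Total level in each slice.

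HSP90AA1, the member with the most reads in Total, was at 0.53 in G20 but at -1.25 and -1.01 in G35 and G45. HSPA8 was at 1.15 in G20 and at -0.75 and -0.86 in the larger slices, but without snoRNA sites it was at -0.76, -1.37 and -1.38, below Total in G20 too. HSPA5 was above Total in each slice, at 0.84, 0.67 and 0.17, although the interval in G45 (-0.54 to 0.71) included 0. HSPA9 was at 0.86, -0.67 and -1.20 and HSPD1 at 0.73, -0.58 and -1.85. In G20 6 of the 7 mRNAs were thus above Total and that of HSPA8 was not. In the larger slices HSP90AB1, HSP90B1 and HSPA5 were at or above Total and the other 4 below it.

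With HuR each of the 7 genes was below its Total level in both replicates, from -1.71 (HSPA9) to -4.51 (HSPA8) in replicate 1 and from -0.39 (HSPA9) to -3.25 (HSPA8) in replicate 2. The medians over the 7 chaperones were 0.86, -0.58 and -0.86 in the slices and -2.51 and -1.35 with HuR, beside 0.17, -0.93, -0.71, -0.67 and -0.11 over all genes. Without snoRNA sites the slice medians of the chaperones were 0.85, -0.58 and -1.01. The 200 genes with the most Total reads had medians of -0.43, -1.65 and -1.41 in the slices and -2.12 and -0.90 with HuR. The chaperone medians were thus above those of these 200 genes in each slice and below them with HuR. The 200 genes were picked for high Total reads, the denominator of the ratio, so low ratios are partly built into their medians. The chaperones were not picked this way or matched in level, and HSPA5 and HSPD1 ranked 2918th and 3722nd in Total.

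**Figure D2:**
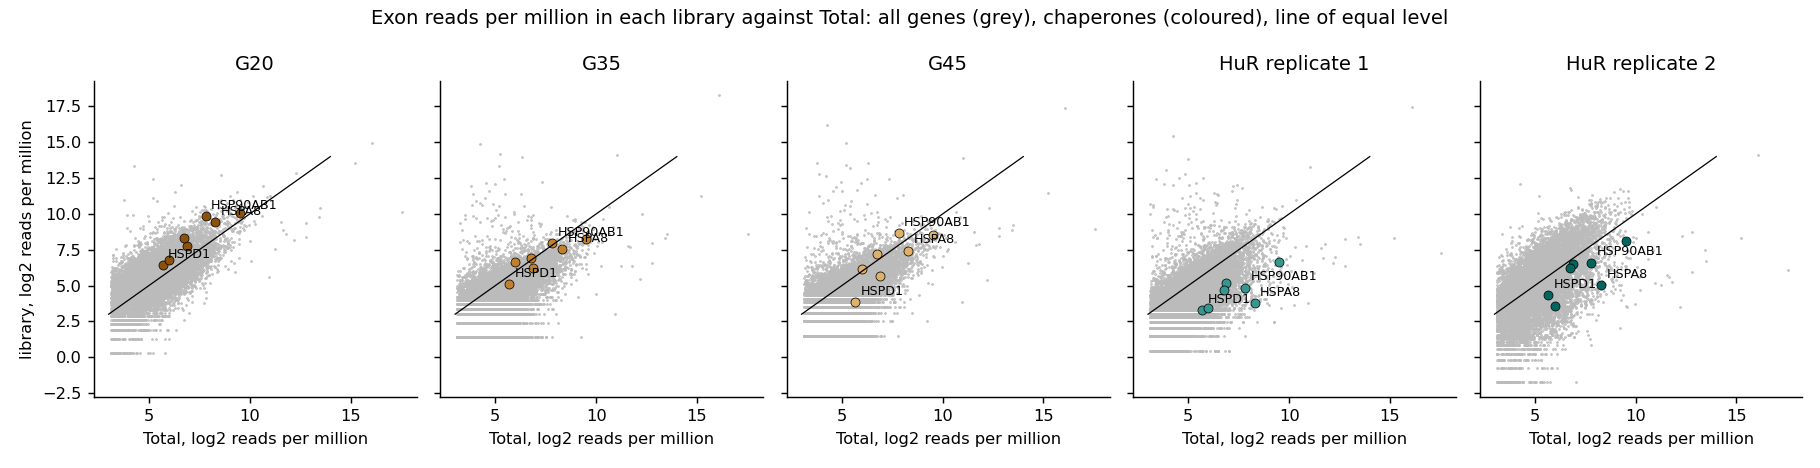
Log2 exon reads of each gene, in RPM, in a library (vertical axis) against Total (horizontal axis), in 1 panel for each of the 5 other libraries, with all genes in grey, the 7 chaperones coloured and a line where both levels are equal. The chaperones lie above the line in G20, with HSPA8 there through its snoRNA reads, around it in G35 and G45, and below it in both HuR panels.

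A single site held much of the Total count of several genes, which bears on each ratio. In HSPA8 1 coding site held 1104 of 1846 Total reads, in HSPA5 193 of 369, and in HSP90AA1 1 site of the 3'UTR held 1510 of 4268. HSP90AA1 also had coding sites with 994, 853 and 693 Total reads, and each of its other mRNA sites held 23 or fewer. Its Total level thus rests on a few sites, and leaving out the best-covered one does not set the others aside. Without the best-covered site of each gene in each library, 0 chaperones were 2-fold below Total in each slice, where 28.4% (G20), 34.7% (G35) and 29.9% (G45) of 8821 genes were, and 2, 4 and 4 of 7 were 2-fold above (17.1%, 18% and 17.5% of genes). The chaperone medians were then 0.77, 1.28 and 1.10 beside -0.25, -0.47 and -0.26 over all genes. The direction of the median against Total in G35 and G45 thus turned with this choice. Scaling by all reads of the tables moved the chaperones and all genes by the same amount, to medians of -2.09 and -2.78 in G20, so it does not bear on how the chaperones stand among genes.

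Within the chaperone mRNAs, background reads lay mostly in the coding sequence, and HuR reads, pooled over the genes, mostly in the 3'UTR. Without snoRNA sites, coding sequence held 90.4% of the exon reads of the 8 genes in G20 (Wilson interval 89.2 to 91.6), 82.8% (G35) and 81.7% (G45), against 70.3% in Total and 19.9% and 29.5% with HuR. The 3'UTR held 4.54%, 10.9% and 10.3% in the slices and 61.5% and 57.9% with HuR. HSP90AA1 alone gave 61 of the 99 and 667 of the 1155 HuR reads in 3'UTRs. With snoRNA sites included, the 3'UTR share with HuR was 39.5% and 29.8% with sites counted once. Without the best-covered site of each gene it was 48.0% and 52.9%. Over the pooled reads of all genes the coding share was 64.1%, 65.2% and 60.7% in the slices, 66.9% in Total and 48.2% and 11.9% with HuR. The chaperones were thus more coding than all genes pooled in the slices and in HuR replicate 2. In HuR replicate 1 they were less coding by reads, but more coding without the best-covered site of each gene (31.0% against 16.4%) and with sites counted once (34.2% against 23.0%). Region length was not taken into account in these shares, and the annotated 3'UTRs of the 8 genes ranged from 222 bases (HSPE1) to 2290 (HSPA9).

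Per gene, on the reference transcript (MANE Select), coding sequence held 93.7%, 83.5% and 88.9% of the slice reads of HSP90AA1 but 11.3% and 27.1% of its HuR reads. HSPA9, whose 3'UTR is the longest of the 8, had 73.6% of its HuR replicate 2 reads in the 3'UTR and 14.6% of its G20 reads there. HSPA8 had no read in its 3'UTR with HuR, and 75.5% of its 49 mRNA reads in replicate 2 were coding. HSPD1 likewise had 88.0% of its 50 mRNA reads of replicate 2 in coding sequence, 24 of them at the site of exon 11 printed above. HSP90AB1 had 1.22%, 0% and 4.26% of its slice reads in the 3'UTR, and 31.3% of 323 reads in HuR replicate 2 and 3 of 13 in replicate 1. HSP90AA1, HSP90B1 and HSPA9 had 72.9%, 68.9% and 73.6% of replicate 2 reads there. The 3'UTR share was thus higher in HuR replicate 2 than in each slice for these 4 genes, whereas HSPA8 had none of its HuR reads there.

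**Figure D3:**
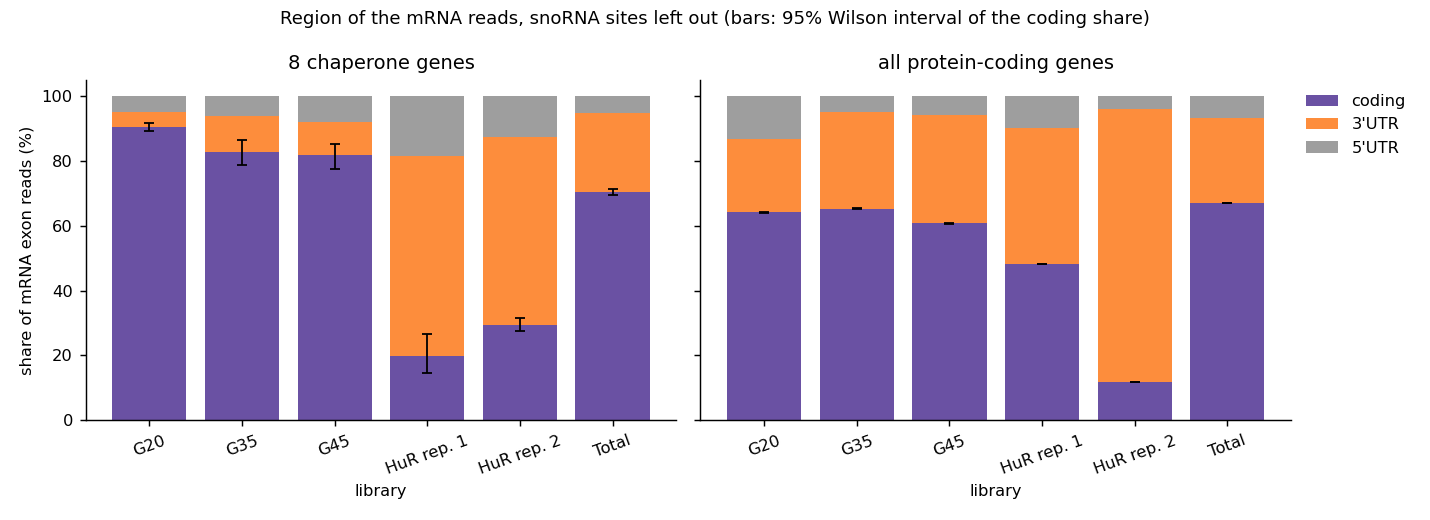
Share of mRNA exon reads (%) in coding sequence, 3'UTR and 5'UTR in each library, without snoRNA sites, for the 8 chaperone genes (left) and all protein-coding genes (right), with 95% Wilson intervals of the coding share as bars. The coding part of the chaperone bars is 81.7% to 90.4% in the slices and 19.9% and 29.5% with HuR.

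Introns took a small share of chaperone reads in background and a larger one with HuR. They held 3.33%, 6.21% and 7.20% of intron, mRNA exon and noncoding exon reads in the slices, 5.99% in Total and 39.4% in both HuR replicates. Noncoding exons are those found only in transcripts not counted as coding. The HuR replicates had 185 and 2121 intron, 162 and 2023 mRNA exon and 123 and 1236 noncoding exon reads. On MANE Select alone, without snoRNA sites, intron reads were 292 and 3267 beside 138 and 1864 mRNA reads. The share with HuR thus depends on where noncoding exons are counted. Over all genes introns held 95.7%, 82.4% and 85.9% in the slices, 38.2% in Total and 79.7% and 81.0% with HuR. HSPA9 gave 62 of the 185 chaperone intron reads in HuR replicate 1 and 1066 of the 2121 in replicate 2, of which 195 lay at 1 site. It had 22, 8 and 9 intron reads in the slices and 211 in Total. In G20 HSP90AA1 had more, with 42.

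The coding background reads were concentrated at runs of purines. Runs of 15 or more consecutive A or G were looked for after the best-covered sites had been seen, so that the counts are a description of these mRNAs and were not tested. The 8 reference mRNAs held 15 such runs, 4 in HSPA5, 6 in HSP90AA1, 3 in HSP90AB1 and 2 in HSP90B1, and HSPA8, HSPA9, HSPD1 and HSPE1 held none. They covered 286 of 21956 bases, or 1.30%. Sites that overlapped a run held 39.1% of the G20 reads on these mRNAs (37.2 to 41.2), 17.5% of those of G35 (13.9 to 21.8) and 27.7% of those of G45 (23.4 to 32.4), but 0.725% and 2.20% with HuR and 0.927% in Total. The share was thus several times larger in each slice than in Total or with HuR.

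The whole codons within the coding runs of the cytosolic HSP90 mRNAs and of HSP90B1 were GAA, GAG, AAA and AAG, which encode glutamate and lysine. Of the runs, 4 of the 6 of HSP90AA1 and 1 each of HSP90AB1 and HSP90B1 are given here with the sequence, up to its first 30 bases, since sites at them held many of the background reads.
HSP90AA1, exon 5, chr14:102551246-102551278, minus strand: aaagaagaagaaaaagaaaaagaagagaaa
HSP90AA1, exon 5, chr14:102551187-102551206, minus strand: gaggaagaagaaaagaagga
HSP90AA1, exon 5, chr14:102551161-102551179, minus strand: aagaagaagaagaagaaga
HSP90AA1, exon 9, chr14:102549446-102549463, minus strand: gaagaagagaaaaagaag
HSP90AB1, exon 10, chr6:44219912-44219930, plus strand: gaggaggagaagaagaaga
HSP90B1, exon 7, chr12:104332198-104332222, plus strand: agaggaagaagaagaagaaaagaaa

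The first of these, a run of 33 bases, had sites with 288 (G20), 7 (G35) and 22 (G45) slice reads, 0 and 18 with HuR and 13 in Total. The run printed from exon 9 of HSP90AA1 had 92, 4 and 11 reads in the slices, 0 and 0 with HuR and 2 in Total, and its G20 and G45 sites also reached a second run of 15 bases next to it. The run in exon 10 of HSP90AB1 had 317, 12 and 29 reads in the slices, 0 and 2 with HuR and 56 in Total. Over the whole interval of 219 bases that the slice sites cover there, the counts were 317, 12 and 30, then 0 and 17, and 166. Counts at this run thus depend on how each library's reads were cut into sites. At all 3 runs G20 held by far the most reads of the slices, and HuR replicate 1 held none.

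By gene, sites at runs held 52.7%, 23.5% and 44.4% of the slice reads of HSP90AA1 against 0.399% in Total, and 51.5%, 27.5% and 31.9% of those of HSP90AB1 against 4.88% in Total. HSP90B1 had 23.5% of its G20 reads at runs, and 1 of 38 reads in G35 and 3 of 38 in G45. In HSPA5 the reads came from 1 run in the 3'UTR, at chr9:127998670-127998686 on the minus strand, with 10, 9 and 2 reads in the slices, 1 and 7 with HuR and 0 in Total, while the other 3 runs of that mRNA had no reads in any library. A run was therefore not in itself covered in background.

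Sites were longer in G20, which lets a site reach a run more readily. The median length of the chaperone exon sites was 38 (G20), 32.5 (G35) and 30 (G45) bases, 24 and 27.5 with HuR and 27 in Total, and the exon 10 site of HSP90AB1 spanned 219 bases. The HSP90AB1 run lies near the end of that site. The part that length had in the shares was not tested. Among exon sites of all genes, those that contained a whole run of 15 purines held 4.87% of G20 reads, 0.541% of G35, 0.652% of G45, 0.0841% and 1.14% of HuR and 0.395% of Total reads, beside 38.8%, 13.4%, 25.4%, 0% and 2.06%, and 0.188%, at the chaperones.

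**Figure D4:**
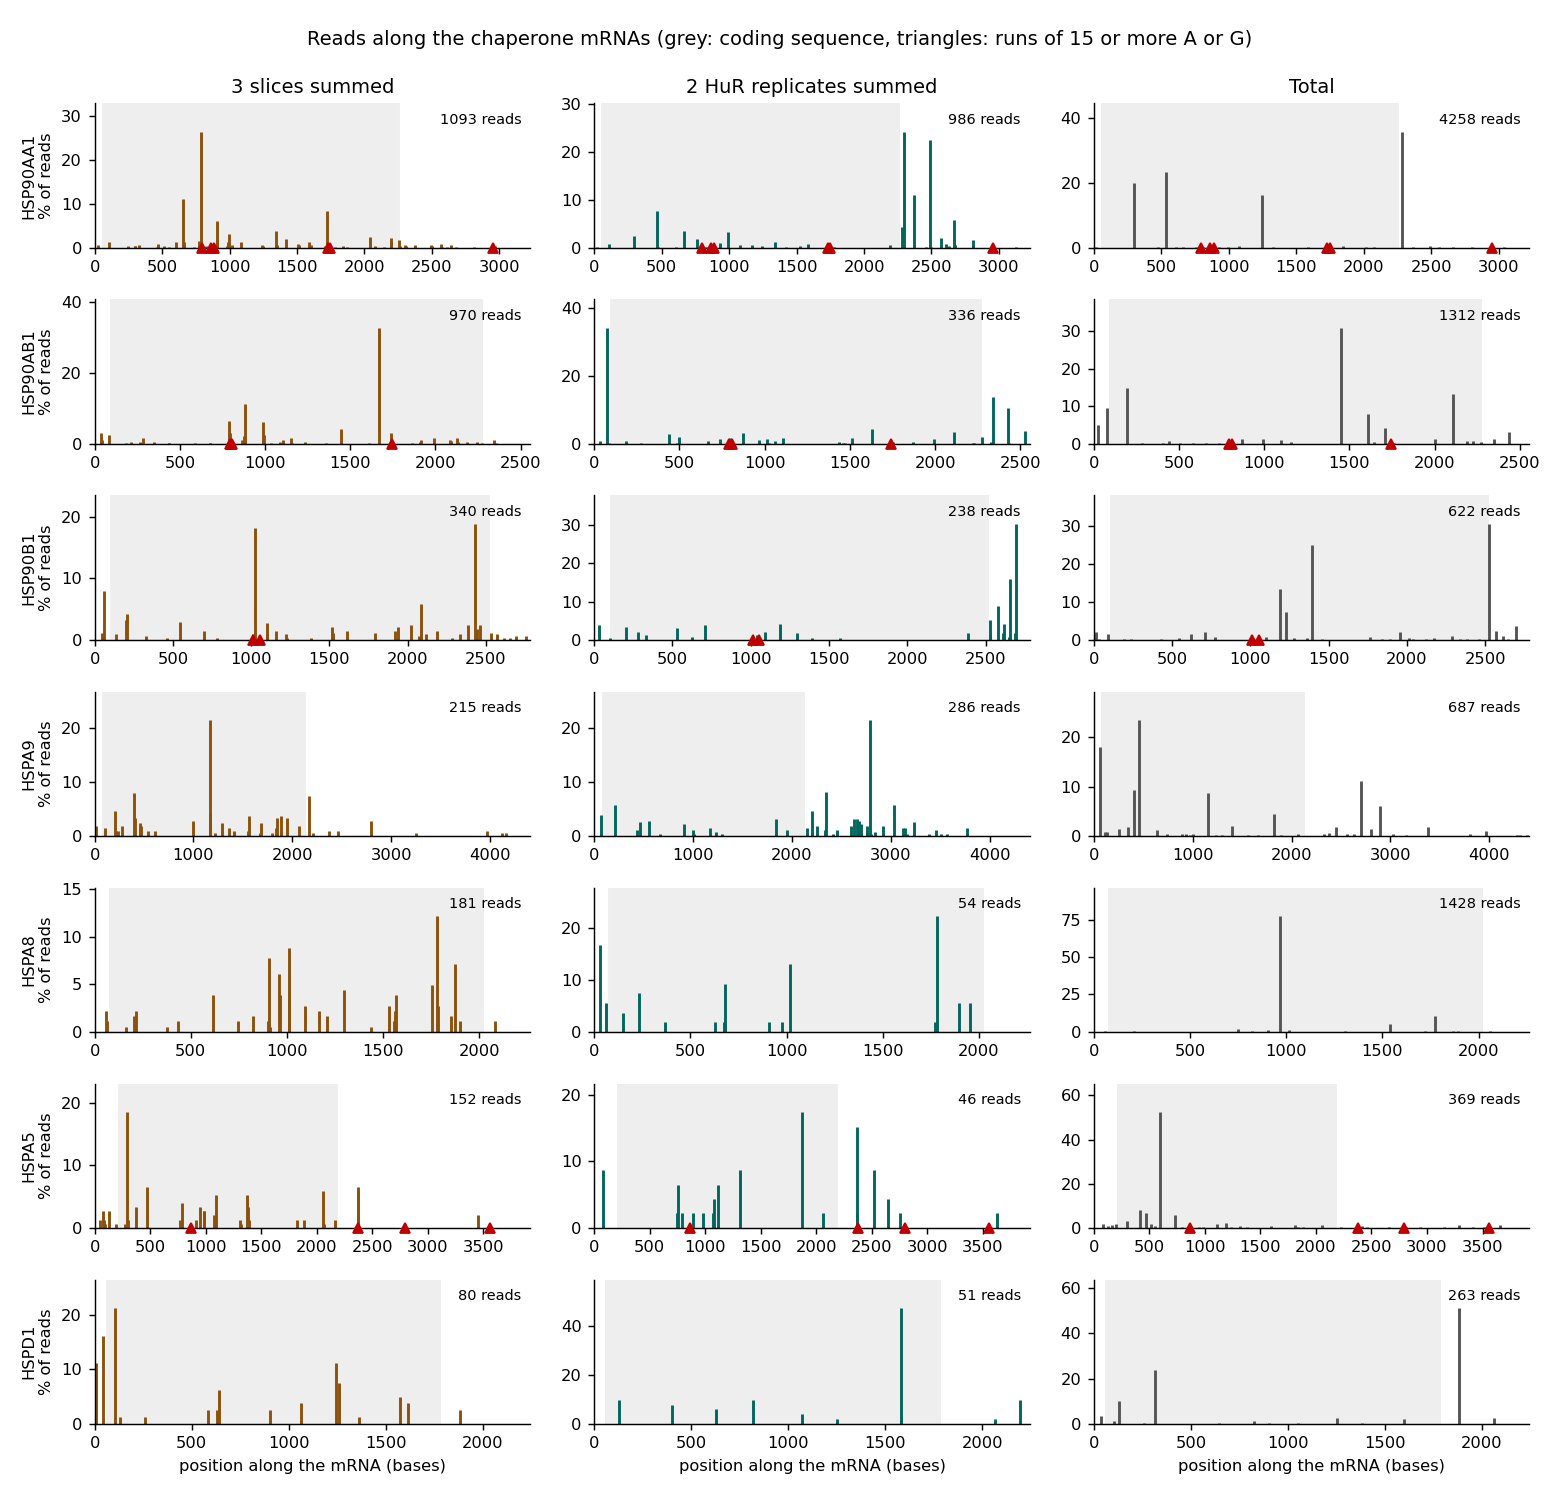
Share of each gene's mRNA reads (%) at each site, drawn at the middle of the site along the mRNA in bases, for the 3 slices summed, the 2 HuR replicates summed and Total, with coding sequence in grey and runs of 15 or more A or G as triangles. In HSP90AA1 and HSP90AB1 the slice reads stand near the runs, while in HSP90AA1, HSP90B1 and HSPA9 the HuR reads stand past the coding sequence.

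The same intervals recurred between slices more often at the chaperones. Sites of the 3 slices at exons were merged into intervals on the same strand, and 29 of the 194 chaperone intervals (14.9%, Wilson interval 10.6 to 20.6) held reads in all 3 slices, against 2.56% of 219647 intervals of all genes. The slices differ in depth and the chaperones have many reads, and among intervals with at least 25 summed reads the shares were 16 of 23 (69.6%, 49.1 to 84.4) and 54.9% of 4721, with overlapping ranges. HSP90AA1 and HSP90AB1 gave 9 recurrent intervals each, HSPA8 and HSPA5 4 each, HSP90B1 2 and HSPA9 1, and HSPD1 and HSPE1 gave none. At the 23 well-covered intervals, RPM was at least 2-fold above Total at 20 (G20), 17 (G35) and 19 (G45), where 89.6%, 61.5% and 65.4% of the intervals of all genes were. These intervals were chosen for their slice reads, so an excess over Total is built into the count, for all genes as for the chaperones.

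HSPA8 and HSPA9 also host box C/D snoRNAs, which guide 2′-O-methylation of other RNAs and are cut from introns. SNORD14C (chr11:122930043-122930130) had sites with 443, 26 and 25 reads in the slices, 1 and 17 with HuR and 363 in Total, and SNORD14E (chr11:122928785-122928869) had 333, 14 and 5, then 0 and 29, and 435. SNORD14D (chr11:122929617-122929703) had 10, 9 and 3 reads, then 0 and 11, and 48. In HSPA9 the SNORD63 copy at chr5:137896732-137896799 had 144, 0 and 23, then 1 and 15, and 37. SNORD14C and SNORD14D lie in what some coding isoforms of HSPA8 annotate as 5'UTR, so their reads entered the exon counts of that gene, and they made up most of its G20 count. SNORD14E and SNORD63 lie in introns and did not.

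Conversions were fewer in G20 and Total than elsewhere. Chaperone exon sites carried 16.9 T-to-C events per 100 reads in G20, 71.1 in G35, 52.1 in G45, 91.4 and 93.0 with HuR and 15.8 in Total. Over all genes the values were 20.9, 45.3, 44.5, 45.9, 98.2 and 25.7. Much of the difference between the chaperones and all genes came with single sites. Without the best-covered site of each gene the chaperone values were 20.4, 78.7, 53.4, 90, 93.3 and 17.1, beside 19.4, 76.5, 54.4, 88.2, 100.96 and 17.0 over all genes. The direction of the difference then turned in G20, G45 and Total, and the difference in G35 and HuR replicate 1 was far smaller. At the purine-rich HSP90AA1 site of exon 5, whose printed stretch has no T, 34 events were counted on 288 G20 reads and 0 on 7 G35 reads, while the exon 4 site gave 27 events on 121 G20 reads and 15 on 15 G35 reads. Clusters are intervals called within sites, with at least 5 reads and evidence of conversion, and 1 site can hold more than 1 of them. They numbered 56, 26 and 19 at chaperone exons in the slices, 3 and 70 with HuR and 67 in Total. The 3 clusters of HuR replicate 1 all lay in HSP90AA1.

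HuR reads on the chaperones were few in replicate 1 and clustered at particular 3'UTR sites in replicate 2. The site in the 3'UTR of HSP90AA1 just after the stop codon, whose stretches are printed above, had 43 reads with 43 events in HuR replicate 1 and 237 with 206 events in replicate 2. The same place had 21, 6 and 5 reads in the slices and 1517 reads with 68 events in Total. A further HSP90AA1 3'UTR site, at chr14:102547805-102547834, had 3 and 221 HuR reads, 4, 7 and 3 slice reads and 18 in Total. The first site was thus also the best covered of HSP90AA1 in Total, though rarely converted there, and the second stood out in replicate 2 alone.

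The T-rich site of HSPA9 had 1 and 61 HuR reads, 0, 1 and 5 slice reads and 9 in Total, and that of HSP90B1 had 4 and 72, then 2, 0 and 0, and 22. Scaled to depth, the 5 reads of the HSPA9 site in G45 stood for 14.2 RPM, near the 18.0 of HuR replicate 2 and above the 1.38 of replicate 1, while the HSP90B1 site was at 2.45 RPM in G20 and at 5.51 and 21.2 with HuR. The HSP90AB1 site of the 5'UTR had 4 and 114 HuR reads beside 32, 12 and 20 in the slices and 191 in Total. At 39.2, 31.6 and 56.8 RPM in the slices against 5.51 and 33.6 with HuR, this site was not higher with HuR. HSPA5 had no mRNA site with more than 8 reads with HuR, and its 3'UTR site in replicate 2 (7 reads) covered the same G-rich and A-rich stretch as its background site.

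Subtracting background by overlap, in which a HuR site is removed if it shares 1 base with a site of any slice, would take most HuR sites from the chaperones. At their exons 46 of 76 HuR replicate 1 sites (60.5%, Wilson interval 49.3 to 70.8) and 103 of 161 replicate 2 sites (63.98%, 56.3 to 71.0) overlapped background, against 26.6% and 26.8% at exons of all genes. By reads, 78.4% and 83.5% of the chaperone HuR reads lay at such sites, against 70.3% and 51.4% over all genes. In replicate 2 the share was 81.7% in coding sequence, 47.9% in the 3'UTR and 41.9% in the 5'UTR, against 44.2%, 20.5% and 35.3% over all genes. Sites of 1 gene share the depth of its mRNA in all libraries, so no test over sites was made.

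The genes differed in this share. HSP90AA1 had 24 of 26 replicate 2 sites with overlap (92.3%, 75.9 to 97.9), which held 99.2% of its HuR reads, so that the 2 well-covered 3'UTR sites above would both be removed. HSPA9 had 16 of 35 (45.7%, 30.5 to 61.8) and HSPD1 6 of 13 (46.2%, 23.2 to 70.9). When only background sites with at least 5 reads counted, the chaperone shares were 35.5% and 42.2%, against 8.83% and 9.44% over all genes.

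In the test of HuR against background across all genes, none of the chaperones passed. The exon reads of 9299 genes were compared between the 2 HuR replicates and the 3 slices with edgeR's quasi-likelihood test with Benjamini-Hochberg adjustment at a threshold of 0.05. The slices are different size regions and not replicates of 1 region, so the spread within background holds the difference between regions. Over all genes 0 were higher and 0 lower with HuR (0% in each direction), while 2440 had an unadjusted p under 0.05, and DESeq2's Wald test on the same reads called 525 higher and 810 lower. Of the chaperones 7 were tested and 0 were called, and HSPE1 had too few reads.

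All 7 estimates were below 0, with a median log2 difference of -2.22 (HuR minus background) beside -0.02 over all genes. The largest with snoRNA reads counted was that of HSPA8, at -4.08 ± 0.85 (SE, adjusted p = 0.0858, edgeR), where its counts, scaled by edgeR to 1000000 reads, were 567, 239 and 211 in the slices and 15.96 and 23.4 with HuR. Without snoRNA sites its scaled counts were 117, 119 and 113 against 14.2 and 17.5, and its difference was -2.85 ± 0.66 (SE, adjusted p = 0.0874, edgeR), smaller than those of HSPA5 and HSP90AB1. HSPA5 was at -3.32 ± 0.73 (adjusted p = 0.0858) and HSP90AB1 at -3.29 ± 0.85 (adjusted p = 0.0894). For these 3 genes each HuR replicate was below each slice in scaled counts, as it was for HSP90AA1 and HSP90B1 but not for HSPA9 and HSPD1. HSP90B1 was at -2.22, HSP90AA1 at -1.82, HSPD1 at -1.73 and HSPA9 at -1.01, with adjusted p of 0.102 to 0.359 in edgeR. DESeq2 called 4 of the 7 chaperones lower with HuR, HSPA8, HSPA5, HSP90AB1 and HSP90B1, beside 810 of 9299 genes. The snoRNA reads of HSPA8 were counted in that fit, and DESeq2 was not run without them.

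For each chaperone tested, the coding and 3'UTR estimates were closer to 0 than the exon estimate. In coding reads, where 3 of 5383 genes were higher with HuR (0.0557%) and 0 lower (0%), 0 of 7 chaperones were called and their median was -1.38 beside 0.19 over all genes. In 3'UTR reads 0 of 4242 genes were called in either direction (0% each, with 807 at an unadjusted p under 0.05 in edgeR), and the 3 chaperones tested were at -0.37 (HSP90AA1), -0.82 (HSPA9) and -1.12 (HSP90B1), beside a median of 0.16. In intron reads 43 of 11407 genes were higher (0.377%) and 487 lower (4.27%), and 0 of 5 chaperones were called, with HSPA9 at 1.12, HSP90B1 at 0.83, HSP90AB1 at 0.34, HSPD1 at 0.24 and HSP90AA1 at -1.49. Each region was scaled to itself, and the regions were not tested against each other.

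**Figure D5:**
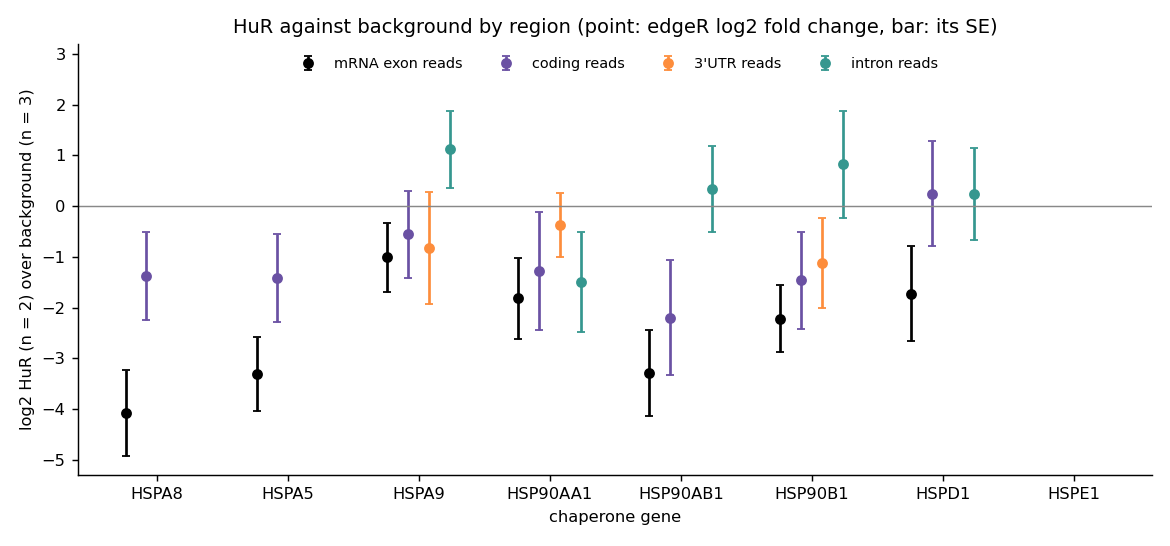
Log2 difference of HuR (n = 2) minus background (n = 3 slices) from edgeR for each chaperone, by region of the reads, with the standard error as bars. All 7 exon estimates lie below 0, from -1.01 to -4.08, the last of which is HSPA8 with its snoRNA reads, while 4 of the 5 intron estimates lie above 0.

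The other genes of the chaperone system had estimates on both sides of 0. Of 84 genes in lists of chaperones and their cofactors, 72 were tested in the exon fit, 0 were called by edgeR in either direction, 36 were below 0 and the median was 0.01. The TRiC chaperonin subunits, which fold actin and tubulin, had a median of -0.81 with 7 of 8 below 0, and the 11 HSP90 cochaperones a median of -0.99 with 6 below 0. The 20 J-domain proteins tested, which deliver substrates to HSP70, had a median of 0.47, and the other 9 HSP70 genes tested 0.23. TRAP1, the mitochondrial HSP90, was at -2.60.

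The lowest of the 72 was CDC37, which brings kinases to HSP90, at -4.55 with 422, 20 and 31 reads in the slices and 4 and 45 with HuR. BAG6 followed at -4.11 and the TRiC subunit CCT3 at -3.70. The highest were DNAJC19 at 2.90, the stress-inducible HSP70 gene HSPA1B at 2.67 and GRPEL2, an exchange factor of HSPA9, at 2.39 with 76, 34 and 94 reads in the slices and 333 and 5832 with HuR. HSPA1B is nearly identical to HSPA1A, so its count is uncertain. None of these 6 passed the adjusted threshold in edgeR.

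The genes whose 5 ratios to Total lay closest to the chaperone medians, snoRNA reads counted, among 2031 other genes with at least 500 Total exon reads, were AARS1, UBN1, DSP, MARS1 and ADGRL1. Their root mean square differences were 0.19, 0.25, 0.26, 0.28 and 0.29 on the log2 scale. AARS1 and MARS1 encode aminoacyl-tRNA synthetases, for alanine and methionine.

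Reads that could come from more than 1 place were left out upstream, and this touches the chaperones more than most genes. Of all stretches of 22 bases within the reference exons, 69.4% in HSPA8, 81.7% in HSPD1, 75.5% in HSPE1, and 64.1% in both HSP90AA1 and HSP90AB1 occur elsewhere in GRCh37, against 35.7% in HSPA5, 26.9% in HSPA9 and 37.8% in HSP90B1, and against a median of 2.5% over 18919 genes sampled at 1 stretch in 50. The annotation names 17 pseudogenes of HSPA8, 18 of HSPD1 and 26 of HSPE1. The levels above count only the reads that map to 1 place. Reads across exon junctions were not mapped either, and 3.77% to 12.9% of such stretches of the 8 mRNAs span a junction. Their part in the differences between libraries was not tested.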

How the data were processed

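Site tables of 6 libraries were used. The authors sequenced 1 library per lane, removed adapters, dropped the shortest reads, mapped the rest to hg19 with Bowtie without splicing and kept, with PARalyzer, uniquely mapping reads in which the few mismatches were T to C. The deposited tables give counts per site, in whole numbers and not normalized, of reads and conversion events. Removal of PCR duplicates is not stated.

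A site was assigned by its midpoint on its own strand to coding sequence, 3'UTR, 5'UTR, small RNA, noncoding exon or intron of GENCODE release 44 on GRCh37, in that order, with readthrough genes left out. Counts were compared with edgeR 4.0.16 (quasi-likelihood, TMM factors, filterByExpr) and DESeq2 1.42.0 in R 4.3.3. The 2 HuR replicates and 3 slices are not stated to be separate cultures, so p-values measure the spread between these libraries. Ratios to Total used a pseudocount of 1 read and had no test. Shares have Wilson intervals at 95%. Python 3.11.15, matplotlib 3.10.9, scipy 1.17.1, numba 0.67.0, numpy 2.4.6 and pandas 2.3.3 were used, and the count test was tested on simulated data.

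All 8 genes were named, with the sites holding the most reads, the 3 other chaperone genes with the largest difference in each direction and the 5 genes most alike. The members and lists were chosen with earlier results of these data known. Alternatives were other scalings, filters, pseudocounts, overlaps, tools and each library left out. Leaving out snoRNA sites and using MANE Select alone were added after the data had been seen.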

Additional observations from a re-analysis of the deposited data

How the results depend on the processing

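Of the main values recomputed under an alternative, 124 stayed within the spread or within 1.5 times, and 38 moved. For the ratio to Total, scaling by all reads of the tables put 6 chaperones below Total in each slice, and 0 above in G20, where 92.5% (G20), 84.4% (G35) and 89.5% (G45) of all genes were below. Without the best-covered site, 0 were below and 4 above in G35, and 0 below and 4 above in G45. With 10 or more Total reads 2 were below in G35 (42.0% of all genes). Without snoRNA sites, chosen after the data had been seen, 2 were also below there (48.2% of all genes). Leaving out snoRNA sites also took HSPA8 from above to below its Total level in G20 (2 above in place of 3). With a pseudocount of 5 reads 1 was below in G45 (17.2% of all genes).

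The share of HuR sites with overlap was 35.5% and 42.2% with background sites of 5 or more reads, and 100% of 3 sites for replicate 1 sites of 5 or more reads. Events per 100 reads without the best-covered site were 20.4 (G20), 78.7 (G35) and 17.1 (Total), without snoRNA sites 18.8 (G20), and at sites with 5 or more reads 96.4 in HuR replicate 1. The coding share, which included snoRNA sites at 75.6%, 75.6%, 76.3%, 19.8%, 29.1% and 67.3% in G20, G35, G45, HuR replicates 1 and 2 and Total, was 71.3% (G20), 34.2%, 50.9% (HuR) and 61.6% (Total) with sites counted once. These became 82.2%, 31.0%, 37.1% and 78.3% without the best-covered site. Without snoRNA sites it was 90.4%, 82.8% and 81.7% in the slices and 70.3% in Total, and on MANE Select alone, also chosen after the data had been seen, 90.8%, 85.6%, 84.9% and 70.9%.

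In the count test, DESeq2 called 4 chaperones lower in exon reads (HSPA8 among them, its snoRNA reads counted), beside 810 of 9299 genes. With no filter edgeR called 1 lower (HSPA8, its snoRNA reads counted), beside 285 of 17569 genes. Library totals in place of TMM factors moved the median of all genes to 1.62 (exon), -0.84 (coding), 3.23 (3'UTR) and 2.79 (intron). Relative to that shift all 7 exon estimates stayed below the median. Library totals also called 3 of 5 chaperones higher in intron reads (HSPA9, HSP90AB1 and HSP90B1), where 4596 of 11723 genes were called higher. Estimates that changed sign with library totals were HSPA9 exon (0.71), HSPD1 coding (-0.51), 3'UTR of HSPA9 (2.80), HSP90AA1 (2.74) and HSP90B1 (1.68), and HSP90AA1 intron (2.09). Leaving out 1 library changed no call of a chaperone but turned some signs. HSPD1 coding ranged from -2.18 (without HuR replicate 2) to 0.94 and was at -0.11 without G45. HSPA9 3'UTR ranged from -1.34 to 0.25 (without G20) and was at 0.06 without HuR replicate 1, and HSP90AA1 3'UTR ranged from -0.54 to 0.33 (without HuR replicate 1). In introns HSP90AB1 ranged from -0.0076 to 0.83 and HSPD1 from -0.094 to 0.73, both lowest without HuR replicate 2. Over all 13 settings of the exon fit, adjusted p ranged from 0.000117 to 0.162 for HSPA8, 0.0022 to 0.454 for HSPA5 and 0.00119 to 0.353 for HSP90AB1. The cause of these changes was not tested beyond what each setting does by construction.

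No paired analysis was possible because the slices carry no replicate number in the labels. Depth limits HSPE1 and the 3'UTR values of HSPA8, HSPA5 and HSPD1, which had 0 to 13 reads in each of the slices and HuR libraries, and Total, each slice and each ratio between them rest on single libraries.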
